A study of Homo sapiens with 16 samples.

Results

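The genes described here are 35 members of the enzyme families that move the methyl group of S-adenosylmethionine onto DNA, histone lysines or protein arginines. A few of them, such as SETD3 and KMT2E, belong by their SET domain and are known for other roles. They were taken by symbol from a list of DNA methyltransferases, SET-domain and SMYD lysine methyltransferases, DOT1L and protein arginine methyltransferases, and all 35 were found among the 62069 Ensembl gene identifiers of the count file. All 35 passed the filter on low counts and were tested together with the other genes, 13526 in all. The cells were IMR90 ER:RAS, sequenced as 16 RNA libraries that fall into 4 groups of 4. IMR90 fibroblasts come from human lung. ER:RAS joins an oncogenic RAS to the ligand-binding part of the oestrogen receptor, so that 4-hydroxytamoxifen (4OHT) switches it on. The groups were shAHCY_2, which received an shRNA (hairpin) against AHCY together with 4OHT, shAHCY_4, which received another hairpin and 4OHT, EV_4OHT, the senescent EV cells given 4OHT, and EV, the non-senescent EV cells. The labels give 100 nM for 4OHT, day 6 and passage 15, and all groups carry ER:RAS. Whether each library was grown as its own culture is not stated, so the p-values reflect the spread among libraries, and that spread could be technical.

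Methyltransferases of these families use S-adenosylmethionine and release S-adenosylhomocysteine, which inhibits methyltransferases and is hydrolysed by AHCY, the gene knocked down here. Methylation of cytosines and of H3K9 and H3K27 is known for marking silent chromatin, whereas H3K4, H3K36 and H3K79 methylation marks promoters and transcribed genes. In fibroblasts, oncogene-induced senescence is a lasting growth arrest in which chromatin is reorganised, and loss of the H3K27 methyltransferase EZH2 is one of its known features. The design asks which of these genes change in EV_4OHT against EV, which is called senescence below. It also asks which change in cells given 4OHT and a hairpin against AHCY. EV_4OHT differs from EV by 4OHT, active RAS and the senescent state at once, so these cannot be told apart here.

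Depth was 8236199 to 18235787 counts per library. AHCY itself had 20.1, 19.0, 12.1 and 22.8 CPM in the shAHCY_2 libraries, 13.4, 14.03, 17.98 and 13.5 CPM in shAHCY_4, 168, 163, 173 and 154 CPM in EV_4OHT, and 124, 106, 102 and 123 CPM in EV. CPM is the TMM-scaled count relative to library size. The hairpin libraries lay below all others, which matches their labels. The 6 fibroblast markers summed to 4631 to 5114 CPM in shAHCY_2, 4476 to 5119 CPM in shAHCY_4, 4554 to 4728 CPM in EV_4OHT and 9418 to 11103 CPM in EV. Epithelial, endothelial and immune markers, 3 each, summed to at most 3.81 CPM in any library, and CD3E, CDH5 and PECAM1 had no count in any library. The 10 proliferation genes listed as context summed to 351 to 392 CPM in shAHCY_2, 361 to 392 CPM in shAHCY_4, 208 to 228 CPM in EV_4OHT and 891 to 1016 CPM in EV, and the part of proliferation in the results below was not tested. Replicate 59 of shAHCY_2 stood apart: its deviations followed transcript GC content with a rank correlation of -0.535 across genes, against -0.266 to 0.281 in the other 15 libraries.

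Set on a scale per length, as CPM per kilobase of the longest transcript, the levels of the 35 genes spanned a wide range. PRMT1, the main asymmetric arginine methyltransferase of human cells, was highest, at 149 ± 5.44 CPM per kilobase in EV_4OHT and 147 ± 14.5 in EV (SD, n = 4 each). In EV it was followed by PRMT2 at 40.7 ± 2.80 and PRMT5 at 32.1 ± 3.57 CPM per kilobase, whose SDs do not meet. The lowest in EV were DNMT3B at 0.519 ± 0.106, DNMT3A at 0.486 ± 0.0831 and SETD1A at 0.425 ± 0.0776 CPM per kilobase, and these neighbours did not differ beyond their spread. SMYD3, a lysine methyltransferase of the SMYD family, stood at rank 2 in EV_4OHT with 42.7 ± 1.91 CPM per kilobase, against rank 4 in EV with 17.5 ± 0.534. EZH2 stood at rank 25 in EV_4OHT with 1.82 ± 0.212 CPM per kilobase, against rank 14 in EV with 7.20 ± 0.242. As a sum over the 35 genes, not per length, the level was 1240 to 1341 CPM in shAHCY_2, 1350 to 1383 CPM in shAHCY_4, 1234 to 1301 CPM in EV_4OHT and 1305 to 1436 CPM in EV.

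In senescent EV_4OHT cells against EV cells, 15 of the 35 genes fell and 4 rose, in a comparison in which 53.5% of all genes tested were called. A gene was called at an adjusted p under 0.05 in edgeR's quasi-likelihood test, with p-values adjusted by Benjamini-Hochberg across the 13526 genes. The genes that fell were 42.9% of the members, and 26.8% of all genes tested fell in this comparison. Those that rose were 11.4% of the members, against 26.7% of all genes. The members were chosen with earlier results of these data known. Whether their shares differ from those of all genes was not tested in any comparison. The median log2 fold change of the 35 genes was -0.23, and that of all genes tested was -0.02. EZH2, DNMT3B, SMYD3 and DOT1L were the 4 called members that changed by over 1 on the log2 scale. In bulk RNA, fewer cells with a transcript and less of it per cell cannot be told apart, and levels are relative to the rest of each library.

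Against EV_4OHT, 3 members were called with shAHCY_2 and 8 with shAHCY_4, the hairpins against AHCY. These comparisons called 6.98% and 14.4% of all genes tested. No group carried a hairpin against another target, so an effect of carrying any hairpin cannot be told apart from loss of AHCY. With shAHCY_2, DNMT3B and KMT2E rose and SMYD3 fell. The 2 genes that rose were 5.71% of the members, against 3.91% of all genes tested, and the 1 that fell was 2.86%, against 3.07%. With shAHCY_4, 7 members rose: DNMT3B, EZH2, EHMT2, PRMT1, PRMT3, PRMT5 and PRMT6. They were 20% of the members, against 7.58% of all genes tested. SMYD3 again was the 1 member that fell with shAHCY_4, 2.86% against 6.86% of all genes. The median log2 fold change of the members was 0.04 with shAHCY_2 and 0.14 with shAHCY_4, against 0.01 and 0.01 over all genes tested. Both hairpins were set against the same EV_4OHT libraries, so their results are not independent of each other. The senescence comparison uses these libraries too. A chance deviation in them therefore moves the senescence and the hairpin comparisons in opposite directions. The count of members that rose with shAHCY_4 was 2 without EV_4OHT replicate 56, without shAHCY_4 replicate 62 or without shAHCY_4 replicate 64, and it was 3 or 4 without any 1 of the other libraries of these groups. With shAHCY_2 it was 0 without EV_4OHT replicate 53, 55 or 56, and 1 without shAHCY_2 replicate 57, 59 or 60.

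**Figure D1:**
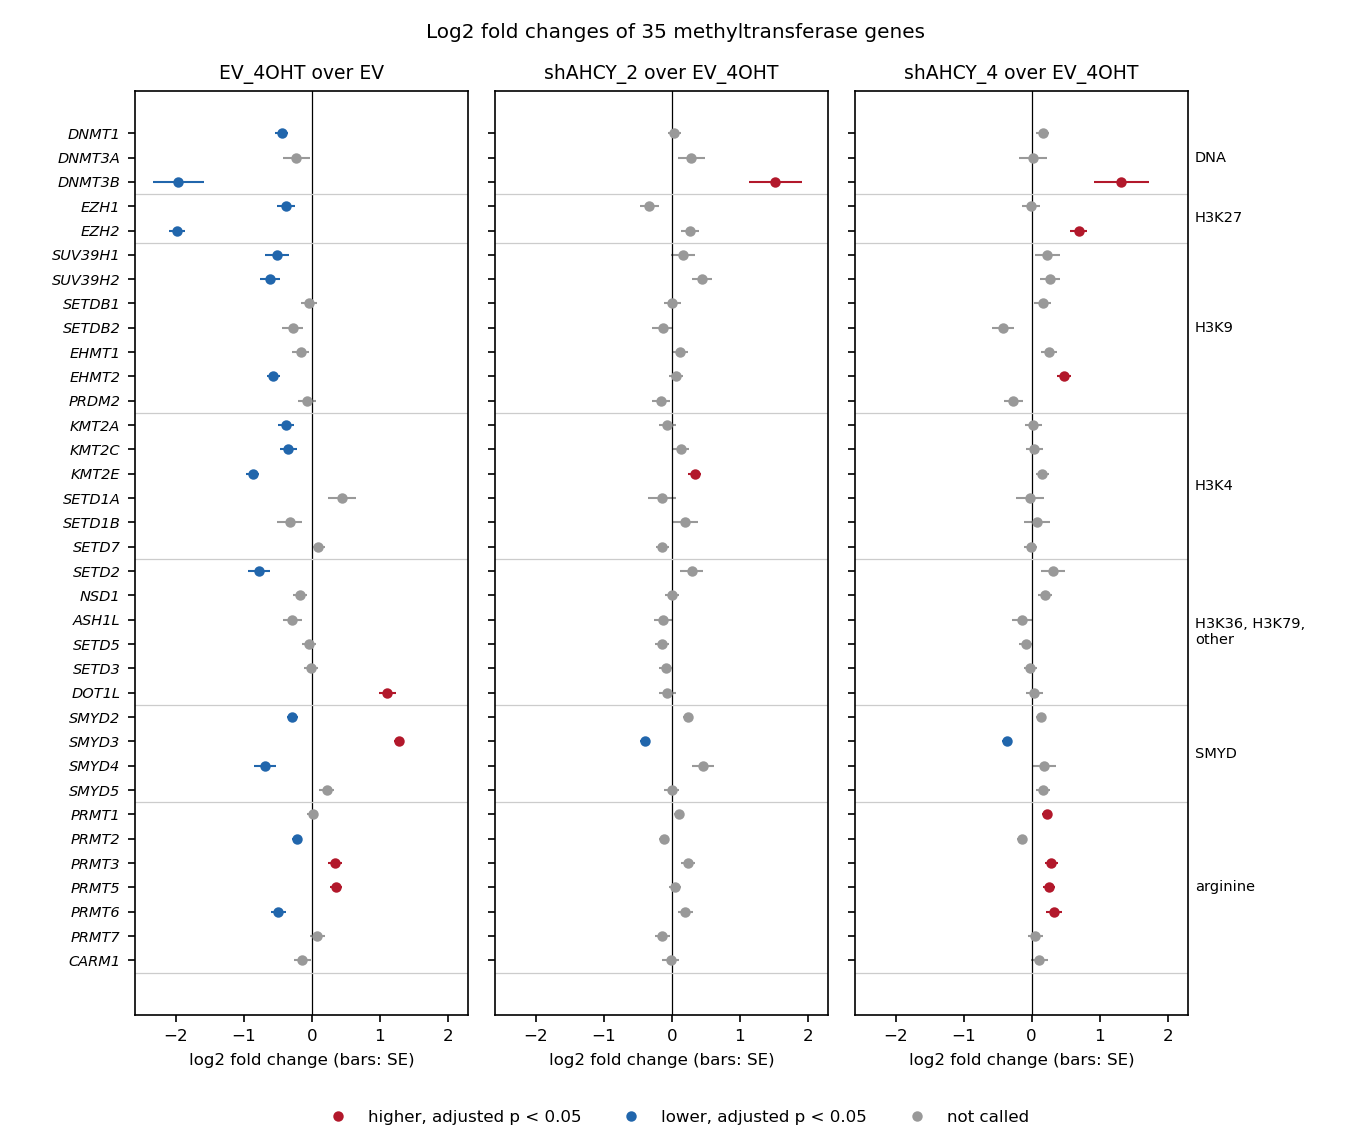
Log2 fold change (x axis, bars are standard errors) of each of the 35 genes (y axis, grouped by substrate) for EV_4OHT over EV, shAHCY_2 over EV_4OHT and shAHCY_4 over EV_4OHT, coloured by call. EZH2 and DNMT3B lie near -2 in the first panel, SMYD3 and DOT1L lie above 1, and the only blue point in each hairpin panel is SMYD3.

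Among the 3 DNA methyltransferases, DNMT3B and DNMT1 fell in senescence, where 26.8% of all genes tested fell. DNMT3B (ENSG00000088305) sets new cytosine methylation. It had 1.48, 1.502, 1.04 and 2.46 CPM in shAHCY_2, 1.70, 1.43, 0.666 and 1.96 CPM in shAHCY_4, 0.499, 0.943, 0.402 and 0.451 CPM in EV_4OHT, and 2.86, 2.32, 1.798 and 2.03 CPM in EV. All EV_4OHT libraries lay below all EV libraries and below all shAHCY_2 libraries, while 1 shAHCY_4 library lay within the EV_4OHT range. The log2 fold change was -1.96 ± 0.37 in EV_4OHT over EV (adjusted p = 0.000124, edgeR's quasi-likelihood test, as for all adjusted p-values below), where ± is the standard error. Over EV_4OHT it was 1.52 ± 0.39 with shAHCY_2 (adjusted p = 0.019) and 1.32 ± 0.40 with shAHCY_4 (adjusted p = 0.0289). These values rest on few reads, 6, 12, 6 and 6 counts in the EV_4OHT libraries. The shAHCY_2 call was lost without EV_4OHT replicate 53, 55 or 56 or without shAHCY_2 replicate 60, with log2 changes of 1.47, 1.38, 1.43 and 1.24. The shAHCY_4 call was lost in 7 of 16 alternatives, in limma-voom at 1.25, without shAHCY_4 replicate 64 at 1.11, without replicate 61 or 62 at 1.25 and 1.31, and without EV_4OHT replicate 53, 55 or 56 at 1.26, 1.179 and 1.22.

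DNMT1 copies methylation onto newly made DNA strands. It averaged 58.7 ± 8.57 CPM in shAHCY_2, 63.98 ± 4.11 in shAHCY_4, 57.1 ± 2.37 in EV_4OHT and 77.7 ± 7.55 in EV. It was lower in EV_4OHT than in EV by a log2 fold change of -0.44 ± 0.10 (adjusted p = 0.000477), and no EV_4OHT library reached the EV range. Against EV_4OHT it differed by 0.04 with shAHCY_2 (95% interval -0.15 to 0.23) and 0.16 with shAHCY_4 (-0.03 to 0.35), neither called, although all 4 shAHCY_4 libraries lay above all EV_4OHT libraries. DNMT3A, the other de novo enzyme, had 4.71 ± 1.26, 3.91 ± 0.678, 3.91 ± 0.218 and 4.61 ± 0.790 CPM in shAHCY_2, shAHCY_4, EV_4OHT and EV, with overlapping ranges and no call in any comparison.

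Both H3K27 methyltransferases, which are alternative catalytic subunits of Polycomb repressive complex PRC2, fell in senescence, as did 26.8% of all genes tested. EZH2 (ENSG00000106462) had 9.16, 7.58, 6.85 and 8.26 CPM in shAHCY_2, 11.7, 11.8, 10.2 and 9.35 CPM in shAHCY_4, 7.56, 5.81, 6.23 and 6.92 CPM in EV_4OHT, and 26.8, 26.9, 26.2 and 25.0 CPM in EV. The EV libraries lay far above all others, all shAHCY_4 libraries lay above all EV_4OHT libraries, and the shAHCY_2 range overlapped that of EV_4OHT. The log2 fold change was -1.98 ± 0.12 in EV_4OHT over EV (adjusted p = 5.59e-12). Over EV_4OHT it was 0.69 ± 0.13 with shAHCY_4 (adjusted p = 0.000754), a call kept in each of 16 alternatives, and 0.27 ± 0.13 with shAHCY_2 (adjusted p = 0.24). With shAHCY_4 it was below EV by a log2 fold change of -1.29 ± 0.12 (adjusted p = 6.22e-09).

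EZH1, the paralog that is typical of resting cells, fell less. It averaged 12.2 ± 2.26 CPM in shAHCY_2, 15.4 ± 2.01 in shAHCY_4, 15.5 ± 0.779 in EV_4OHT and 20.2 ± 2.58 in EV. The log2 fold change in EV_4OHT over EV was -0.38 ± 0.13 (adjusted p = 0.0173), lost without EV replicate 49 (-0.32, adjusted p = 0.0507) and without EV_4OHT replicate 54 (-0.35, adjusted p = 0.0505). With shAHCY_2 it was -0.33 ± 0.14 over EV_4OHT, not called (adjusted p = 0.156), although all 4 shAHCY_2 libraries lay below all EV_4OHT libraries. As a description on the scale per kilobase, EZH2 stood at 0.673 to 1.19 times EZH1 in shAHCY_2 libraries, 0.765 to 1.13 times in shAHCY_4, 0.505 to 0.584 times in EV_4OHT and 1.42 to 1.84 times in EV. EZH1 was thus the more abundant of the pair in every EV_4OHT library and EZH2 in every EV library.

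**Figure D2:**
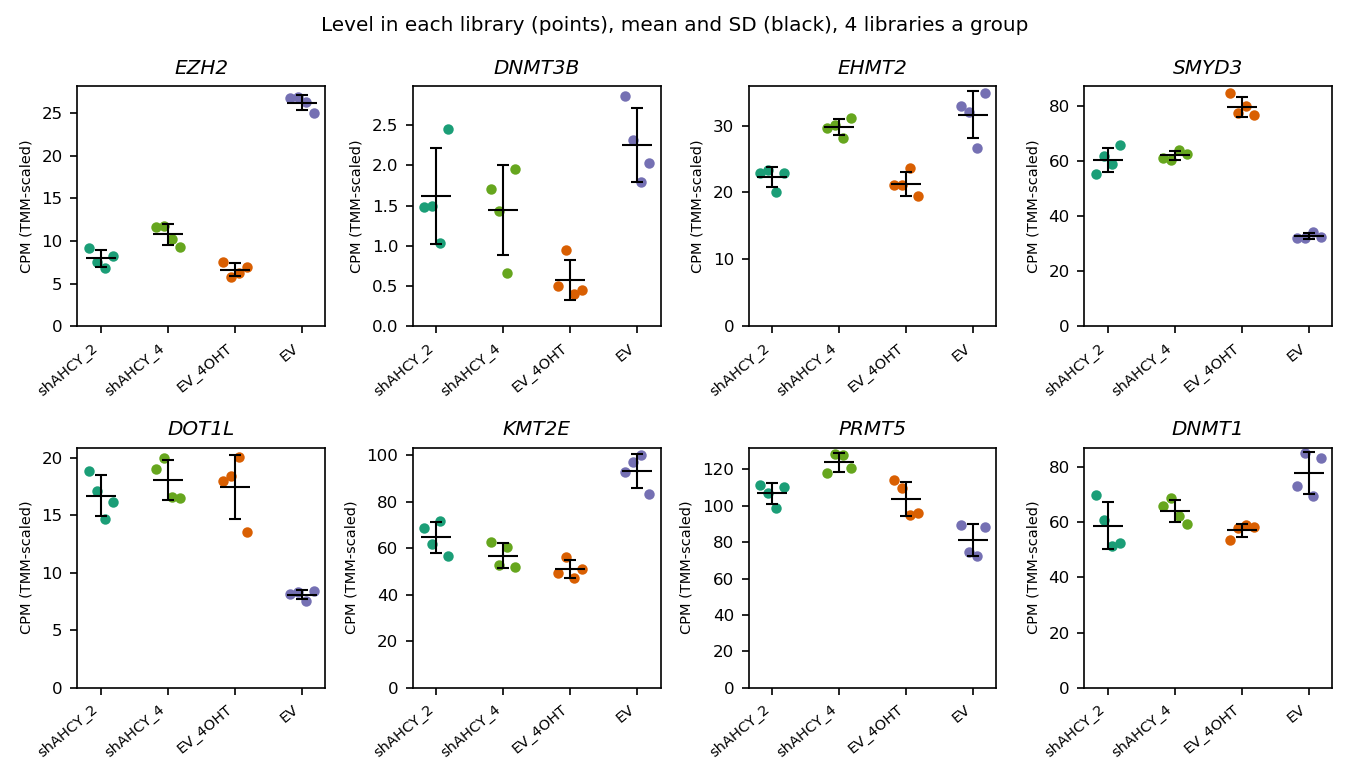
TMM-scaled CPM (y axis, starting at 0) of 8 of the 35 genes in each of the 16 libraries (points) by group (x axis), with mean and SD in black. EZH2 and SMYD3 separate EV from EV_4OHT in opposite directions, and both hairpin groups lie between them for SMYD3.

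Promoters of EZH2, DNMT1 and EZH1 are shown because they are the members that fell in senescence and hold an E2F word near the start, DNMT3B because it moved in both directions, and SMYD3 because it rose most. RefSeq promoters (GRCh38.p14, 250 bases before to 50 after the start, written 5′ to 3′ on the gene's strand) were found for 33 of the 35 genes. For genes with several promoters, members or not, only the first listed was searched. EZH2 and SMYD3 had 2 each. Capitals mark the words searched on both strands: the E2F words TTTCCCGC, TTTCGCGC, TTTGCCGC and TTTGGCGC, the NF-Y word CCAAT and the word TTTGAA of cell-cycle promoters (CHR). The words do not share letters with each other in these windows. EZH2 lies at chr7:148884242-148884541 (minus strand), DNMT1 at chr19:10194904-10195203 (minus), EZH1 at chr17:42744991-42745290 (minus), DNMT3B at chr20:32779602-32779901 (plus) and SMYD3 at chr1:246507230-246507529 (minus).
EZH2: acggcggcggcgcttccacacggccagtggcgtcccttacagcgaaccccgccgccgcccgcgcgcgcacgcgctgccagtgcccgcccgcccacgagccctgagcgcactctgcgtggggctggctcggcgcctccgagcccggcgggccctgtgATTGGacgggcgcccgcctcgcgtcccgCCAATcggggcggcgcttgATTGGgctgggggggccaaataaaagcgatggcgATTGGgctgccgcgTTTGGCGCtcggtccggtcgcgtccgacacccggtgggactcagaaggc
DNMT1: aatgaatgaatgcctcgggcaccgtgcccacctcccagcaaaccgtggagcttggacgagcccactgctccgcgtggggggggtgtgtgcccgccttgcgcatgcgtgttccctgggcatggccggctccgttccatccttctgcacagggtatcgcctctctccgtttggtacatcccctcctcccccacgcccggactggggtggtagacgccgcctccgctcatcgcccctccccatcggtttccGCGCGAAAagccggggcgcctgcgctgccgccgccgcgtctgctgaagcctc
EZH1: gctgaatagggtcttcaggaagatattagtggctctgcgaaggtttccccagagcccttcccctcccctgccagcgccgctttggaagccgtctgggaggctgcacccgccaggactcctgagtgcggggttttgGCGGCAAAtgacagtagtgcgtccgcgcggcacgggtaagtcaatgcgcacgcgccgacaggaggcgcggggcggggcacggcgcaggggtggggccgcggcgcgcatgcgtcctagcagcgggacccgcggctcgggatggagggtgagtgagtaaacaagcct
DNMT3B: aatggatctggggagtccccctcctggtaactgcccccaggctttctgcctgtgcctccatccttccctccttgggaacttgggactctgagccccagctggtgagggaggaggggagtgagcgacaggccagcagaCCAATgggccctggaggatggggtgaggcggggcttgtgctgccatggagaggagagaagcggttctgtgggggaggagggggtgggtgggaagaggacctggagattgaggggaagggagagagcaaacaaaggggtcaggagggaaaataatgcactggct
SMYD3: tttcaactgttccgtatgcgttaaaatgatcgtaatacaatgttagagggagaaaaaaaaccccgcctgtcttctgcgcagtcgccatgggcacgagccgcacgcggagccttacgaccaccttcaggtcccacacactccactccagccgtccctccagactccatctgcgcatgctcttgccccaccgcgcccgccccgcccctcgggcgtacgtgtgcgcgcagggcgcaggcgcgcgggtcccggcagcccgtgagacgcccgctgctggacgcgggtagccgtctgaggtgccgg
The EZH2 window held TTTGGCGC and 4 CCAAT words, the DNMT1 window TTTCGCGC as its reverse complement, the EZH1 window TTTGCCGC as its reverse complement, the DNMT3B window 1 CCAAT word and the SMYD3 window none of the words. An E2F word was in 3 of 33 member promoters (9.09%), against 3.33% of 27305 promoters. All 3 were among the 15 members that fell in senescence, and 0 were among the other 18. Whether the E2F word and the fall are linked was not tested. CCAAT was in 30.3% of the member promoters, against 35.7% of all, and TTTGAA in 6.06%, against 15.4%. Members' promoters had a median GC content of 69.0%, against 58.3% for all promoters. The shares of words were not matched for GC content, and all promoters include those of genes not tested here. A match is a run of letters, and binding was not measured.

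Of the 7 H3K9 methyltransferases, 3 fell in senescence and none rose, where 26.8% of all genes tested fell and 26.7% rose. Whether this or another role group, of 2 to 7 genes each, differs from those shares was not tested. SUV39H1 and SUV39H2, which trimethylate H3K9 in pericentric heterochromatin, changed by -0.51 ± 0.17 (adjusted p = 0.0179) and -0.61 ± 0.14 (adjusted p = 0.000989) on the log2 scale. SUV39H1 was lost without EV replicate 49 (-0.43) or EV_4OHT replicate 53 (-0.46), and SUV39H2 was the 1 called member whose EV_4OHT and EV ranges overlapped. EHMT2 (G9a, ENSG00000204371), which with EHMT1 makes mono- and dimethylated H3K9, had 22.9, 23.3, 20.1 and 22.9 CPM in shAHCY_2, 29.6, 30.1, 28.2 and 31.1 CPM in shAHCY_4, 21.1, 21.1, 23.7 and 19.4 CPM in EV_4OHT, and 32.9, 32.0, 26.6 and 34.9 CPM in EV. All EV and shAHCY_4 libraries lay above all EV_4OHT libraries, and every shAHCY_2 library lay within the EV_4OHT range. In EV_4OHT over EV the log2 fold change was -0.57 ± 0.10 (adjusted p = 4.58e-05) and 0.48 ± 0.10 in shAHCY_4 over EV_4OHT (adjusted p = 0.0021), kept in each of 16 alternatives. With shAHCY_2 it was 0.07 ± 0.10 (adjusted p = 0.738).

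EHMT1, SETDB1, SETDB2 and PRDM2 were not called in senescence or with either hairpin over EV_4OHT. EHMT1 differed by -0.17 ± 0.12 in EV_4OHT over EV, and by 0.13 ± 0.12 with shAHCY_2 and 0.25 ± 0.12 with shAHCY_4 over EV_4OHT (adjusted p = 0.173 for shAHCY_4). SETDB1, which trimethylates H3K9 in retroelement silencing, differed by -0.04 in senescence (95% interval -0.28 to 0.19). SETDB2 was the member with the lowest value with shAHCY_4, -0.41 ± 0.16 (adjusted p = 0.095), with overlapping ranges. SUV39H2 stood above EV_4OHT in all 4 shAHCY_2 libraries, by 0.44 ± 0.15 (adjusted p = 0.072), without a call.

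Among the 6 genes grouped with H3K4 methylation, KMT2E, KMT2A and KMT2C fell in senescence and none rose. Over all genes tested, 26.8% fell and 26.7% rose. KMT2E (MLL5, ENSG00000005483) is a SET-domain protein of this family known as a reader of H3K4 methylation. It had 68.5, 61.6, 71.6 and 56.8 CPM in shAHCY_2, 62.5, 52.7, 60.4 and 51.7 CPM in shAHCY_4, 49.4, 56.3, 47.1 and 50.99 CPM in EV_4OHT, and 92.6, 96.8, 100.2 and 83.2 CPM in EV. All EV libraries were highest, and all shAHCY_2 libraries lay above all EV_4OHT libraries, the nearest pair at 56.8 and 56.3. In EV_4OHT over EV the log2 fold change was -0.87 ± 0.09 (adjusted p = 5.45e-08), 0.34 ± 0.09 in shAHCY_2 over EV_4OHT (adjusted p = 0.0295) and 0.16 ± 0.09 in shAHCY_4 over EV_4OHT (adjusted p = 0.306). The shAHCY_2 call was lost without replicate 57 (0.31) or 59 (0.29) of shAHCY_2 and without replicate 53 (0.32), 55 (0.30) or 56 (0.34) of EV_4OHT. It was also lost in a fit of only the groups compared (0.34, adjusted p = 0.0506). KMT2A (MLL1) changed by -0.38 ± 0.12 (adjusted p = 0.0116) in senescence. KMT2C, which acts at enhancers, changed by -0.35 ± 0.12 (adjusted p = 0.0205), lost without EV_4OHT replicate 53 (-0.29) or 54 (-0.33). SETD1A, SETD1B and SETD7 were not called, at 0.44 ± 0.20, -0.33 ± 0.19 and 0.10 ± 0.10 in EV_4OHT over EV. With the hairpins the 6 genes lay between -0.14 and 0.34 for shAHCY_2 and between -0.02 and 0.16 for shAHCY_4. For shAHCY_4 the count of calls was 0, with 0 at an unadjusted p under 0.05 in edgeR and 0 in DESeq2 and limma-voom. In that comparison edgeR called 14.4% of all genes tested.

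In the group of H3K36 and H3K79 methyltransferases and further SET proteins, SETD2 fell and DOT1L rose in senescence. Over all genes tested, 26.8% fell and 26.7% rose. SETD2 (ENSG00000181555), which trimethylates H3K36, had 16.8, 13.3, 25.0 and 13.6 CPM in shAHCY_2, 19.8, 14.7, 14.1 and 20.6 CPM in shAHCY_4, 16.7, 13.7, 12.9 and 12.3 CPM in EV_4OHT, and 23.6, 24.7, 23.9 and 23.1 CPM in EV. All EV libraries lay above all EV_4OHT libraries, and the high shAHCY_2 value belongs to replicate 59. In EV_4OHT over EV the log2 fold change was -0.78 ± 0.17 (adjusted p = 0.000432), and over EV_4OHT 0.29 ± 0.17 with shAHCY_2 and 0.31 ± 0.17 with shAHCY_4, neither called (adjusted p = 0.334 and 0.245). DOT1L (ENSG00000104885), the H3K79 methyltransferase, had 18.9, 17.1, 14.6 and 16.1 CPM in shAHCY_2, 19.0, 20.01, 16.6 and 16.5 CPM in shAHCY_4, 17.96, 18.4, 20.02 and 13.5 CPM in EV_4OHT, and 8.15, 8.33, 7.51 and 8.42 CPM in EV. Every library given 4OHT lay above every EV library. In EV_4OHT over EV the log2 fold change was 1.11 ± 0.13 (adjusted p = 1.79e-07), and over EV_4OHT it was -0.07 with shAHCY_2 (95% interval -0.31 to 0.18) and 0.04 with shAHCY_4 (-0.20 to 0.28). NSD1 and ASH1L, which act on H3K36, and SETD5 and SETD3, the actin histidine methyltransferase, were not called in senescence, at -0.18, -0.29, -0.04 and -0.01. Over EV_4OHT, 0 of the 6 genes in this group were called with either hairpin. There were 0 at an unadjusted p under 0.05 in edgeR and 0 calls in DESeq2 and limma-voom. The share of all genes tested that edgeR called was 6.98% with shAHCY_2 and 14.4% with shAHCY_4.

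Of the 4 SMYD genes, SMYD3 rose and SMYD2 and SMYD4 fell in senescence, where 26.7% of all genes tested rose and 26.8% fell. SMYD3 (ENSG00000185420) methylates lysines of histones and of the kinase MAP3K2. It had 55.2, 61.7, 58.9 and 65.6 CPM in shAHCY_2, 61.1, 60.1, 63.8 and 62.6 CPM in shAHCY_4, 84.5, 77.1, 79.8 and 76.7 CPM in EV_4OHT, and 32.1, 32.1, 34.2 and 32.3 CPM in EV. The EV libraries were lowest, the EV_4OHT libraries highest, and all 8 hairpin libraries lay between without meeting either. SMYD3 rose by a log2 fold change of 1.28 ± 0.08 in EV_4OHT over EV (adjusted p = 2.26e-12). Over EV_4OHT it was -0.40 ± 0.07 with shAHCY_2 (adjusted p = 0.00141) and -0.36 ± 0.07 with shAHCY_4 (adjusted p = 0.00187), and both calls were kept in each of 16 alternatives. Over EV it was 0.89 ± 0.08 with shAHCY_2 (adjusted p = 1.95e-09) and 0.92 ± 0.08 with shAHCY_4 (adjusted p = 1.07e-09). SMYD2, which methylates p53 among other proteins, changed by -0.28 ± 0.08 (adjusted p = 0.00318) and SMYD4 by -0.69 ± 0.16 (adjusted p = 0.000872) in senescence. SMYD2 lay above EV_4OHT in all 4 libraries of each hairpin, by 0.24 ± 0.08 with shAHCY_2 and 0.14 ± 0.08 with shAHCY_4, neither called (adjusted p = 0.0628 and 0.241). SMYD4 differed by 0.46 ± 0.16 with shAHCY_2 (adjusted p = 0.096) and 0.19 ± 0.17 with shAHCY_4, with overlapping ranges. SMYD5 was not called in senescence, at 0.22 ± 0.11 (adjusted p = 0.0957).

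The 7 arginine methyltransferases split in senescence: PRMT5 and PRMT3 rose, PRMT6 and PRMT2 fell, and PRMT1, PRMT7 and CARM1 were not called. Over all genes tested, 26.7% rose and 26.8% fell. PRMT5 (ENSG00000100462), which makes symmetric dimethylarginine, had 111, 107, 98.9 and 110.4 CPM in shAHCY_2, 118, 129, 128 and 121 CPM in shAHCY_4, 114, 109.6, 95.1 and 96.1 CPM in EV_4OHT, and 89.6, 74.6, 72.2 and 88.2 CPM in EV. PRMT3 (ENSG00000185238), a cytosolic enzyme that methylates a ribosomal protein, had 32.9, 34.6, 28.7 and 32.7 CPM in shAHCY_2, 39.3, 32.0, 29.4 and 33.7 CPM in shAHCY_4, 27.8, 25.9, 28.5 and 27.3 CPM in EV_4OHT, and 22.6, 22.3, 20.4 and 21.3 CPM in EV. For both genes the EV libraries lay below all others and the shAHCY_4 libraries above all EV_4OHT libraries. The log2 fold change in EV_4OHT over EV was 0.35 ± 0.09 for PRMT5 (adjusted p = 0.0014) and 0.34 ± 0.10 for PRMT3 (adjusted p = 0.00518).

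PRMT6 (ENSG00000198890), which methylates H3R2, had 32.7, 34.0, 37.8 and 36.4 CPM in shAHCY_2, 34.2, 37.9, 42.8 and 38.6 CPM in shAHCY_4, 27.1, 31.8, 34.9 and 28.4 CPM in EV_4OHT, and 40.1, 39.5, 53.2 and 39.4 CPM in EV. PRMT1 (ENSG00000126457) had 279.8, 277, 244 and 281 CPM in shAHCY_2, 272, 308, 298 and 296 CPM in shAHCY_4, 250.1, 263, 248 and 241 CPM in EV_4OHT, and 265, 237, 219.7 and 273 CPM in EV. PRMT6 was lower in all EV_4OHT libraries than in EV, whereas the PRMT1 ranges of these groups overlapped. The log2 fold change in EV_4OHT over EV was -0.49 ± 0.11 for PRMT6 (adjusted p = 0.000622), -0.21 ± 0.07 for PRMT2 (adjusted p = 0.0165) and 0.01 ± 0.08 for PRMT1 (adjusted p = 0.909). PRMT7 and CARM1 differed by 0.08 ± 0.11 and -0.14 ± 0.12.

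With shAHCY_4 over EV_4OHT, 4 of the 7 arginine methyltransferases rose, in a comparison in which 7.58% of all genes tested rose. The log2 changes were 0.23 ± 0.08 for PRMT1 (adjusted p = 0.0451), 0.29 ± 0.10 for PRMT3 (adjusted p = 0.0447), 0.26 ± 0.09 for PRMT5 (adjusted p = 0.0468) and 0.33 ± 0.11 for PRMT6 (adjusted p = 0.0496). All 4 adjusted p-values are close to the threshold of 0.05, and each call was lost in 10 of 16 alternatives. Without shAHCY_4 replicate 62 the log2 changes were 0.20 for PRMT1, 0.31 for PRMT3, 0.23 for PRMT5 and 0.33 for PRMT6, and none was called. Without EV_4OHT replicate 56 they were 0.21, 0.29, 0.22 and 0.29, and none was called. With shAHCY_2 0 of the 7 genes were called in edgeR, DESeq2 or limma-voom, and edgeR called 6.98% of all genes tested. An unadjusted p under 0.05 in edgeR was found for 1 of the 7, PRMT3 at 0.24 ± 0.10. The shAHCY_2 values of PRMT1, PRMT5 and PRMT6 were 0.11 ± 0.08, 0.04 ± 0.09 and 0.20 ± 0.11.

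The hairpins were compared with each other, as shAHCY_2 over shAHCY_4. EHMT2 was the 1 member called, 2.86% of the members, against 0.54% of all genes tested that were lower in shAHCY_2 and 1.24% called in either direction. Its log2 difference was -0.41 ± 0.10 (adjusted p = 0.0437), and all 4 shAHCY_2 libraries lay below all 4 shAHCY_4 libraries. The call was lost in 11 of 16 alternatives, including each of those that left out 1 library, where the log2 difference lay between -0.44 and -0.36. EZH2 differed by -0.42 ± 0.13, with no overlap between the groups and no call (adjusted p = 0.0982). No member was called higher in shAHCY_2, against 0.702% of all genes, with 0 at an unadjusted p under 0.05 in edgeR and 0 in DESeq2 and limma-voom. For DNMT3B the difference was 0.20 (95% interval -0.48 to 0.89), for SMYD3 -0.04 (-0.18 to 0.11) and for KMT2E 0.19 (0.00 to 0.37). PRMT5 differed by -0.21 (95% interval -0.38 to -0.04), with all 4 shAHCY_2 libraries below all 4 shAHCY_4 libraries and no call (adjusted p = 0.199). PRMT1, PRMT3 and PRMT6 differed by -0.12 (-0.26 to 0.03), -0.05 (-0.24 to 0.14) and -0.13 (-0.35 to 0.09), with overlapping ranges and no call.

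The hairpin groups were also set against EV. They differ from EV by both the hairpin and 4OHT, and no hairpin group lacks 4OHT, so these cannot be told apart here. In shAHCY_2 over EV, 4 members were higher (11.4%, against 24.5% of all genes tested) and 11 were lower (31.4%, against 23.6%). In shAHCY_4 over EV, 6 were higher (17.1%, against 25.4%) and 13 were lower (37.1%, against 25.8%). In either direction 48.1% of all genes were called for shAHCY_2 and 51.2% for shAHCY_4. The lower count was 7 without shAHCY_2 replicate 58 for shAHCY_2 and 7 without shAHCY_4 replicate 62 for shAHCY_4. EZH2 was lower with both, by -1.72 ± 0.12 (adjusted p = 8.31e-11) with shAHCY_2 and -1.29 ± 0.12 with shAHCY_4. DOT1L was higher with both, at 1.04 ± 0.13 and 1.15 ± 0.13, and PRMT3 at 0.58 ± 0.10 and 0.63 ± 0.10. EHMT2 was lower in shAHCY_2, at -0.50 ± 0.10 (adjusted p = 0.000234), and not called in shAHCY_4, at -0.09 ± 0.10 (95% interval -0.28 to 0.11). DNMT3B was called with neither, at -0.44 ± 0.32 with shAHCY_2 and -0.64 ± 0.33 with shAHCY_4. Some members not called in senescence were called here. SETDB2 was lower with shAHCY_2 and shAHCY_4, at -0.42 ± 0.16 and -0.70 ± 0.16, and ASH1L at -0.41 ± 0.14 and -0.42 ± 0.14. With shAHCY_4 alone, PRDM2 was lower, at -0.34 ± 0.14 (adjusted p = 0.0457), and PRMT1 and SMYD5 were higher, at 0.24 ± 0.08 and 0.39 ± 0.11. These comparisons share the EV libraries with each other and with the senescence comparison.

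**Figure D3:**
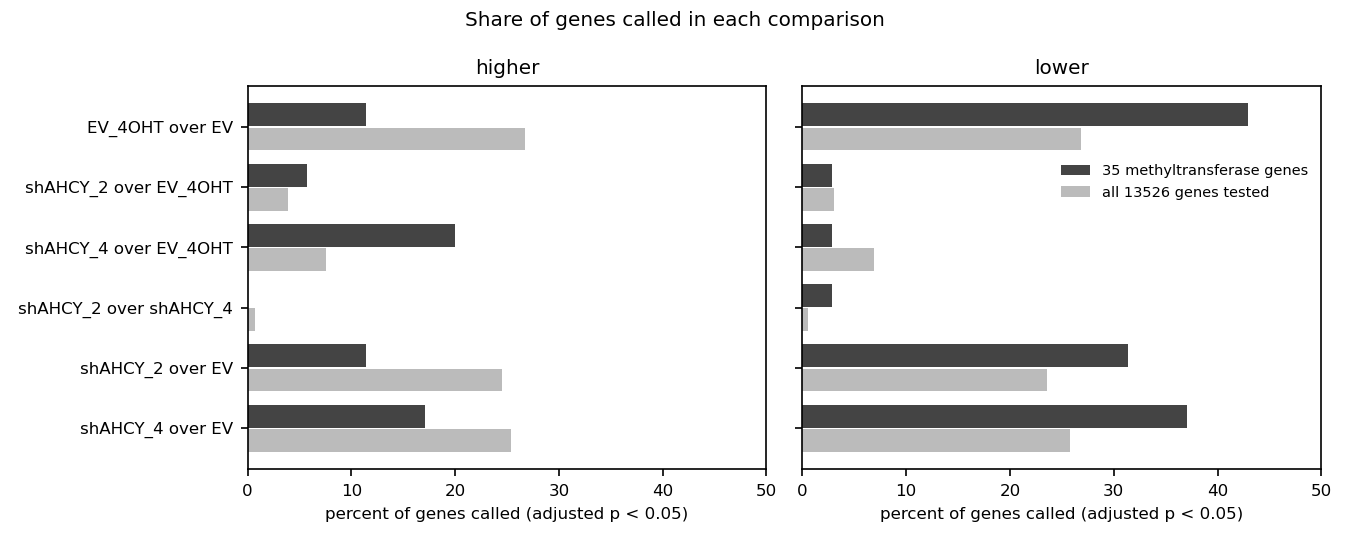
Percent of genes called (x axis) higher (left) or lower (right) in each of 6 comparisons (y axis), for the 35 methyltransferase genes (dark) and all 13526 genes tested (light). In EV_4OHT over EV the dark bar is 11.4% against 26.7% on the left and 42.9% against 26.8% on the right.

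Smart-Seq2 libraries do not mark strand, so reads of genes that overlap on opposite strands could not be told apart. Exons of 6 members overlap those of an abundant opposite-strand gene in the GENCODE 29 annotation: CARM1 with YIPF2, DOT1L with PLEKHJ1, KMT2E with SRPK2, SETDB1 with CERS2, SMYD4 with RPA1 and SUV39H2 with DCLRE1C. PLEKHJ1 changed by -0.55 ± 0.09 in EV_4OHT over EV (adjusted p = 1.89e-05), the opposite direction to DOT1L. RPA1 and DCLRE1C fell as SMYD4 and SUV39H2 did, by -0.48 ± 0.08 and -0.65 ± 0.13, and SRPK2 by -0.28 ± 0.09 (adjusted p = 0.011), less than KMT2E. The values of SMYD4, SUV39H2 and KMT2E are uncertain to that extent, and these neighbours were chosen after their values were seen. Pseudogenes named for CARM1, EZH2 and PRMT5 held 18, 0 and 1 counts over all libraries.

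Further methyltransferases outside the 35 were listed for comparison, and 11 of the 16 found were tested. In senescence 2 rose and 2 fell, 18.2% each, against 26.7% and 26.8% of all genes tested. NSD2, an H3K36 dimethyltransferase, changed most: it had 16.0, 17.1, 13.3 and 16.8 CPM in shAHCY_2, 21.1, 17.5, 19.2 and 16.7 CPM in shAHCY_4, 7.90, 11.9, 13.1 and 8.65 CPM in EV_4OHT, and 36.02, 34.2, 31.9 and 34.4 CPM in EV. EV libraries were highest and every hairpin library lay above every EV_4OHT library. NSD2 changed by -1.71 ± 0.14 on the log2 scale in EV_4OHT over EV (adjusted p = 3.98e-10), and over EV_4OHT it was 0.61 ± 0.14 with shAHCY_2 (adjusted p = 0.00862) and 0.83 ± 0.14 with shAHCY_4 (adjusted p = 0.000241). SETD4 and PRMT9 rose in senescence, by 0.52 ± 0.13 and 0.39 ± 0.14, and PRMT9 was lost without EV replicate 49 (0.28), 50 (0.38) or 52 (0.34) or EV_4OHT replicate 56 (0.29). NSD3 rose with shAHCY_2 and shAHCY_4, by 0.39 ± 0.11 (adjusted p = 0.0321) and 0.34 ± 0.11 (adjusted p = 0.0402). Each NSD3 call was lost in 7 of 16 alternatives, with the lowest value, 0.22, without shAHCY_4 replicate 62. The others that left out 1 library and lost it were those without EV_4OHT replicate 53, 54 or 56, at 0.37, 0.37 and 0.40 for shAHCY_2 and 0.32, 0.31 and 0.35 for shAHCY_4, without shAHCY_2 replicate 59 or 60, at 0.36 and 0.39, and without shAHCY_4 replicate 61, at 0.34.

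Of 17 subunits and partners of the enzymes, 5 fell and 2 rose in senescence. The 29.4% that fell are near the 26.8% of all genes, and 41.2% were called in either direction, against 53.5% of all genes. Those with the smallest p-values were RBBP7 and RBBP4, histone-binding subunits of PRC2 and other complexes, at -0.75 ± 0.07 and -0.47 ± 0.07, and PHF19, a PRC2 accessory protein, at -1.15 ± 0.11. With shAHCY_2, RBBP7 rose by 0.27 ± 0.07 (adjusted p = 0.0169) and was the 1 partner called, a call lost without EV_4OHT replicate 54 (0.26) or 55 (0.25) or shAHCY_2 replicate 57 (0.22). This 1 call with shAHCY_2 is 5.88% of the partners, against 6.98% of all genes tested. With shAHCY_4 the count was 0 in edgeR, against 14.4% of all genes tested. There were 5 at an unadjusted p under 0.05, 1 call in DESeq2 and 0 in limma-voom.

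Of 22 demethylases and TET dioxygenases tested, 6 rose and 6 fell in senescence. These are 27.3% in each direction, near the 26.7% and 26.8% of all genes tested that rose and fell. KDM6B, an H3K27 demethylase, rose by 1.14 ± 0.20 (adjusted p = 5.27e-05), KDM5C, an H3K4 demethylase, by 0.53 ± 0.10 (adjusted p = 0.00013), and TET2, which oxidises methylcytosine, changed by -1.03 ± 0.20 (adjusted p = 0.000187). With shAHCY_2 over EV_4OHT 0 were called in edgeR, against 6.98% of all genes tested. There were 6 at an unadjusted p under 0.05, 1 call in DESeq2 and 0 in limma-voom. With shAHCY_4 0 were called in edgeR, against 14.4% of all genes tested. There were 5 at an unadjusted p under 0.05 and 1 call each in DESeq2 and limma-voom. Whether the demethylases differ from these shares was not tested.

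The enzymes that make S-adenosylmethionine and hydrolyse its product were also read. AHCY rose in senescence by 0.53 ± 0.12 (adjusted p = 0.000741), and over EV_4OHT it changed by -3.14 ± 0.14 with shAHCY_2 (adjusted p = 3.54e-13) and by -3.48 ± 0.14 with shAHCY_4 (adjusted p = 1.03e-13). AHCYL1, an AHCY-like protein, rose in senescence by 1.12 ± 0.11. MAT2B, the regulatory subunit of the S-adenosylmethionine synthetase, fell in senescence, by -0.48 ± 0.09, and rose with shAHCY_2, by 0.50 ± 0.09 (adjusted p = 0.00141). MAT2B was higher in shAHCY_2 than in shAHCY_4, by 0.49 ± 0.09 (adjusted p = 0.0091), a call lost without shAHCY_4 replicate 62 (0.45, adjusted p = 0.0506). MAT2A, its catalytic subunit, changed by -0.39 ± 0.08 with shAHCY_4 (adjusted p = 0.0013).

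The 10 proliferation genes were lower in EV_4OHT than in EV in every case, and 9 of 10 rose with each hairpin. Over all genes tested, 26.8% fell in EV_4OHT over EV, and 3.91% and 7.58% rose with shAHCY_2 and shAHCY_4. BIRC5, survivin, changed by -3.57 ± 0.11 in EV_4OHT over EV, by 1.70 ± 0.11 in shAHCY_2 over EV_4OHT and by 1.97 ± 0.11 in shAHCY_4 over EV_4OHT. TOP2A, a DNA topoisomerase, changed by -3.64 ± 0.12, 1.62 ± 0.12 and 1.55 ± 0.12 in the same order. CCNA2, cyclin A2, changed by -3.65 ± 0.11 in EV_4OHT over EV, by 1.62 ± 0.12 in shAHCY_2 over EV_4OHT and by 1.41 ± 0.12 in shAHCY_4 over EV_4OHT. MKI67 changed by -4.02 ± 0.21, 1.84 ± 0.23 and 2.23 ± 0.23 in the same order. LMNB1, lamin B1, a nuclear lamina gene known to fall in senescence, changed by -4.84 ± 0.19, 2.27 ± 0.21 and 2.24 ± 0.21. EZH2, DNMT3B and NSD2 moved in the same directions as these genes with shAHCY_4, and the part of proliferation in their values was not tested.

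**Figure D4:**
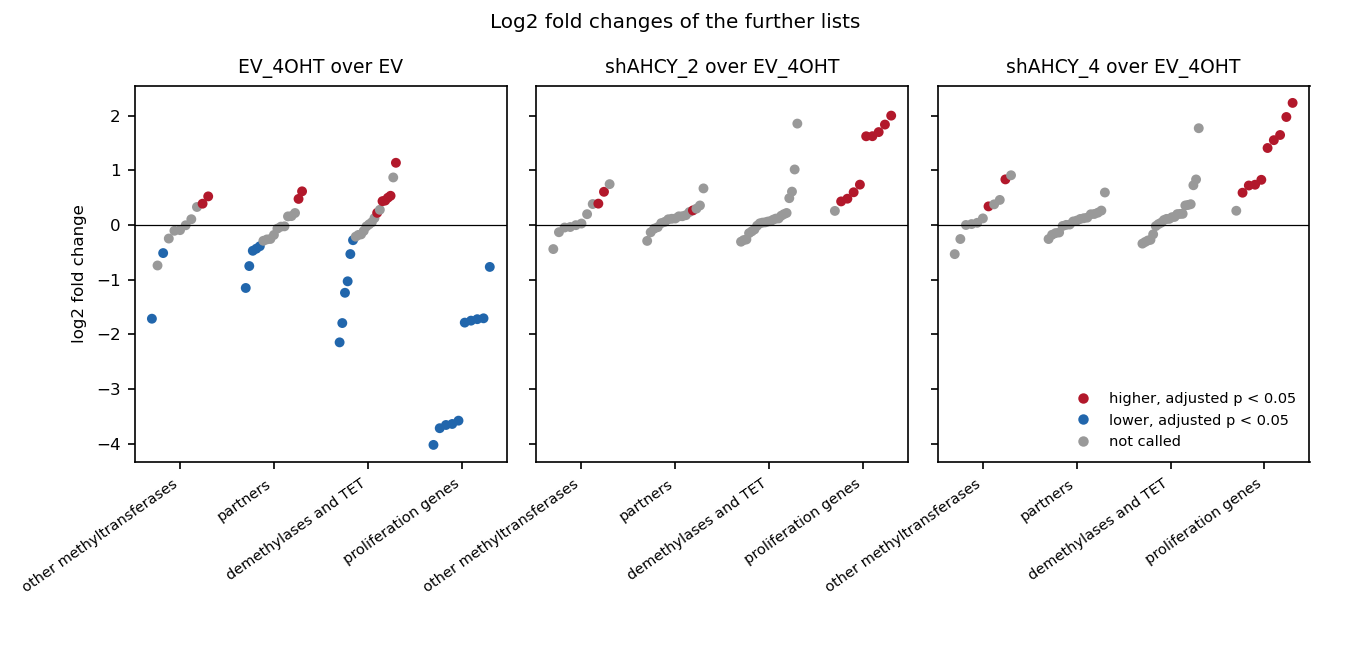
Log2 fold change (y axis) of each tested gene in 4 further lists (x axis) for EV_4OHT over EV, shAHCY_2 over EV_4OHT and shAHCY_4 over EV_4OHT, coloured by call. All 10 proliferation genes lie below 0 in the first panel and above 0 in the other panels. The demethylases hold no coloured point in the hairpin panels, where 6.98% and 14.4% of all genes tested were called.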

How the data were processed

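RNA was measured in 16 IMR90 ER:RAS libraries, 4 in each of 4 groups taken from the labels. The deposited file holds the authors' raw read counts per Ensembl gene. Per the submitters' processing notes, CASAVA 1.8.2, TopHat2 2.0.11 and featureCounts 1.18.0 were used with hg19/GRCh37. Per the labels' protocols, RNA was extracted with Trizol and RNeasy and libraries were made with Smart-Seq2 and Nextera XT, which do not mark strand. Strand and multi-mapping settings are not recorded in the labels or file.

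Counts were scaled by TMM and genes kept by edgeR's expression filter (13526 genes). All 16 libraries entered 1 quasi-likelihood fit without covariates (edgeR 4.0.16, R 4.3.3, limma 3.58.1, DESeq2 1.42.0), whose biological coefficient of variation was 11.9%. P-values were adjusted by Benjamini-Hochberg over all genes tested. Standard errors are the log2 fold change divided by the root of F, and 95% intervals are normal intervals from them. Such intervals are somewhat narrower than the test would give. For KMT2E between the hairpins the interval starts just above 0, while the unadjusted p in edgeR's quasi-likelihood test was 0.0614. The alternatives were RLE factors, library totals alone, DESeq2, limma-voom, no low-count filter, 10 counts in 8 libraries, only the groups compared, GC trend removed, and leaving out each library in turn.

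The members and lists were chosen with earlier results of these data known. Values in every library are given for members called with a hairpin over EV_4OHT or between hairpins, and for the 4 called members with the largest rise and the 4 with the largest fall in EV_4OHT over EV. From each further list up to 3 genes with the smallest adjusted p are named, with AHCY, MKI67, CCNA2 and LMNB1 as context. KMT2B and UHRF1 were listed but matched no symbol and are not analysed here.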

Additional observations from a re-analysis of the deposited data

Results flagged for a closer look

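In 13 of 216 groups of 4 libraries, over 54 named genes, 1 library stood apart by a gap to its nearest neighbour past Dixon's critical value for a group of 4. Chance flags about 1 in 20 such groups. Of these, 9 were in the methyltransferase genes, which are 35 of the 54 named genes. In shAHCY_2 replicate 59, EHMT2 was low at 20.13 CPM, against 22.94 to 23.31 CPM in the other libraries of the group, and PRMT1 was low at 244.1 CPM, against 277 to 281.1 CPM. In shAHCY_4, SMYD5 was high in replicate 62 at 44.08 CPM, against 40.19 to 40.39 CPM, and PRDM2 was low in replicate 63 at 12.87 CPM, against 14.67 to 14.97 CPM. In EV_4OHT replicate 55, SETD3 was high at 38.16 CPM, against 31.34 to 31.89 CPM. In EV replicate 51, SETDB2 was high at 17.34 CPM, against 11.31 to 12.07 CPM, SMYD3 at 34.16 CPM, against 32.09 to 32.34 CPM, and PRMT6 at 53.24 CPM, against 39.41 to 40.07 CPM. In EV replicate 50, SETDB1 was high at 14.27 CPM, against 12.64 to 12.91 CPM.

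Among the other named genes, AHCY was high in shAHCY_4 replicate 63 at 17.98 CPM, TOP2A in shAHCY_2 replicate 59 at 61.23 CPM, AHCYL1 in EV_4OHT replicate 53 at 86.87 CPM and RBBP4 in EV replicate 51 at 141.4 CPM. Between the hairpins, 2 named genes differed by edgeR's test of the difference itself: EHMT2 with a log2 difference of -0.41 and MAT2B with 0.49, both as shAHCY_2 over shAHCY_4.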

How the results depend on the processing

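No called value of the 35 genes reversed its direction under the alternatives run. No paired analysis was possible because the replicate numbers in the labels differ between the groups. The count of members that rose with shAHCY_2 over EV_4OHT, 2, was 4 with library totals alone, 1 with only the groups compared, 5 with the GC trend removed, and 0 to 2 when 1 library was left out. The count that rose with shAHCY_4 over EV_4OHT, 7, was 4 with RLE factors, 4 with limma-voom, 3 with no low-count filter, 4 with 10 counts in 8 libraries, and 2 to 4 when 1 library was left out. The count that fell with shAHCY_4, 1, was 2 with only the groups compared and 1 to 2 when 1 library was left out. Between the hairpins the count lower in shAHCY_2, 1, was 0 with limma-voom, 0 with no low-count filter, 0 with only the groups compared, 2 with the GC trend removed, and 0 in every fit that left out 1 library. When 1 library was left out, the count lower in shAHCY_2 than in EV, 11, was 7 to 11, and that lower in shAHCY_4 than in EV, 13, was 7 to 12. Each of these fits holds 1 library less, and the cause of the lower counts was not tested. In senescence, EZH1, SUV39H1, KMT2C, SMYD2, PRMT2 and PRMT3 each lost their call in 1 to 3 of 16 alternatives, and the other 13 called members in none.

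Over all genes, 168 were called between the hairpins, against 500 with DESeq2, 553 with no low-count filter, 620 with the GC trend removed and 78 with only the groups compared. With shAHCY_4 over EV_4OHT 1953 were called, against 3136 with only the groups compared. Library totals alone shifted the median of all genes to -0.13 in EV_4OHT over EV, and 38.2% of the calls were then higher, against 49.9% with TMM. The same share was 69.8% against 56% for shAHCY_2 and 67.4% against 52.5% for shAHCY_4, both over EV_4OHT. Between the hairpins it was 38.9% with the GC trend removed and 77.8% with no low-count filter, against 56.5%. Depth limits DNMT3B most, with 6 to 12 counts in each EV_4OHT library.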
